A study of Mus musculus with 24 samples.

Results

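A set of 10 genes of glucose breakdown and of the response to low oxygen was followed across embryonic lung and small intestine. They were taken by symbol from the 55536 genes of the table, as Slc2a1, Hk2, Pfkl, Aldoa, Pgk1, Eno1, Ldha, Pdk1, Bnip3 and Egln3. The rule uses their names and no threshold on a measured value. Whole lungs and whole small intestines were dissected from mouse embryos at E11.5 for bulk RNA sequencing, a stage that the study's design places before an obvious phenotype. The 24 libraries form 6 groups of 4. Controls were ShhCre Cenpj+/lox, the centriole-disrupted Cenpj mutants were ShhCre Cenpj-/lox, and the cilia-disrupted Ift88 mutants were ShhCre Ift88-/lox. Every embryo carried ShhCre, in which Cre is made from the Shh locus, active in the epithelium of both organs, so the other cells kept their conditional allele. The controls therefore retained 1 working copy of Cenpj in the epithelium, each mutant was heterozygous in all its other cells, and the same control libraries served both mutants. The labels do not say whether replicates came from separate embryos, so p-values measure the spread between these libraries, which may be partly technical.

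Glycolysis splits glucose into pyruvate in the cytosol and yields ATP without oxygen. Glut1 (Slc2a1) brings glucose into the cell, hexokinase 2 (Hk2) traps it as a phosphate, and the liver-type phosphofructokinase (Pfkl) commits it to the pathway. Aldolase A (Aldoa) splits the sugar, phosphoglycerate kinase 1 (Pgk1) makes ATP, enolase 1 (Eno1) acts at a later step, and lactate dehydrogenase A (Ldha) turns pyruvate into lactate. Pyruvate dehydrogenase kinase 1 (Pdk1) keeps pyruvate out of the mitochondrion, and Bnip3 takes part in the removal of mitochondria. When oxygen is low, the transcription factor HIF-1 escapes the prolyl hydroxylases that mark it for destruction and binds DNA at the core sequence ACGTG or GCGTG near its targets. Egln3 (Phd3) is such a hydroxylase and is itself a HIF target. Embryonic tissue is known for high glycolytic gene expression.

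The DNA before the annotated starts of these genes shows how commonly they carry the HIF core. All 10 genes matched RefSeq promoter windows on GRCm38.p6, 16 windows in all, each the 250 bases before an annotated start. The core ACGTG or GCGTG, searched on both strands, lay in 14 of the 16 windows, against 38.6% of 32851 windows over all genes. ACGTG alone lay in 8 windows of 7 genes, against 16.57% of all windows. Windows 2 and 3 of Eno1 overlap and hold the same cores, as do windows 2 and 3 of Aldoa, so these were counted more than once. Some windows before a later start lie in exon, such as window 2 of Pdk1 with all its 250 bases. The genes were picked for glucose breakdown and the response to low oxygen, so these shares are no test. The palindrome CACGTG, which holds ACGTG on both strands, occurs in 6.02% of all windows. The 6 windows below are shown, for the 4 enzymes whose levels varied together and for Hk2 and Egln3, the genes with a called difference. Of the 3 windows of Aldoa, 2 hold the core and 1 does not, and one that holds it is shown, while Eno1 and Ldha are shown by the first of their 3 and 2 windows. Each reads 5′ to 3′ in the direction of the gene, and capitals mark the core on either strand.
Ldha, chr7:46845554-46845803, plus strand: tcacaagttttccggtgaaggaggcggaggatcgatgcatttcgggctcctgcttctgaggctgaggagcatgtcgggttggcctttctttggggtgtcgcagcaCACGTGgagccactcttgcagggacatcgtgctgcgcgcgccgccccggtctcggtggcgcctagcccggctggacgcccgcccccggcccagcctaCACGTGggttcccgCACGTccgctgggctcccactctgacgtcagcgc
Pgk1, chrX:106186850-106187099, plus strand: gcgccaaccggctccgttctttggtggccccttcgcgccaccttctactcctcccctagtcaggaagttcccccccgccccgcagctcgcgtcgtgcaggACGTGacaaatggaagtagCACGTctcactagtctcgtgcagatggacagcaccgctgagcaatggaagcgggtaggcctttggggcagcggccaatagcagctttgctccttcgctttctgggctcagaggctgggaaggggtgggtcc
Aldoa, chr7:126799255-126799504, minus strand: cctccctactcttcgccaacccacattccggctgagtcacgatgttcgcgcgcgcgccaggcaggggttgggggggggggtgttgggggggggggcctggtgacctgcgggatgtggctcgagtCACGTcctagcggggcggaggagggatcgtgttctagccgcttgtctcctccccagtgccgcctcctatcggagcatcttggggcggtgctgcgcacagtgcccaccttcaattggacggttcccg
Eno1, chr4:150236458-150236707, plus strand: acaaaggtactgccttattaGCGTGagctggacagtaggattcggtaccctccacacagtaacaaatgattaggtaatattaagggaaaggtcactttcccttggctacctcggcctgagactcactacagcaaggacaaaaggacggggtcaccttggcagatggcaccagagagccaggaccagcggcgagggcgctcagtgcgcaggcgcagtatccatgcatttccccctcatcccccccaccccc
Hk2, chr6:82774455-82774704, minus strand: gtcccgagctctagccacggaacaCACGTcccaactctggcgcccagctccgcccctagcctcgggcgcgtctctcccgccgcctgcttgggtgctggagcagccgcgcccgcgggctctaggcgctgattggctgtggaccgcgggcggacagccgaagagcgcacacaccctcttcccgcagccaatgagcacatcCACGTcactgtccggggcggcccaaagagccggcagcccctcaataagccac
Egln3, chr12:54203875-54204124, minus strand: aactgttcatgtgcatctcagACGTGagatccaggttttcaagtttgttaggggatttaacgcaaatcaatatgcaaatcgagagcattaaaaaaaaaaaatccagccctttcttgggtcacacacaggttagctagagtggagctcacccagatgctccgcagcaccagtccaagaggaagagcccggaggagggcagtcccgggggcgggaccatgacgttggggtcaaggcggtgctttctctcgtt
The Ldha window shown holds ACGTG at 3 places, of which 2 are the palindrome, and the Pgk1 and Hk2 windows hold it at 2 places each, a number reached by 1.95% of all windows. In the Aldoa window shown and in that of Egln3 it occurs at 1 place, and the Eno1 window shown has GCGTG but no ACGTG. A match describes the letters only, since no binding was measured.

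Library depth was alike, while tissue makeup varied, with summed normalized counts of 4 liver markers from 290 to 12452 within Cenpj mutant lung. Recovered totals ran from 96.1 to 120.9 M reads (median 108.4), with 21994 to 26529 genes detected. A set of 10 libraries, namely all 8 of the Cenpj mutants, lung control 3 and intestine control 2, had 2519 to 14428 ribosomal RNA reads per M reads, against 297 to 1287 in the other 14, so this property cannot be told apart from the Cenpj genotype in a comparison with Ift88 mutants. Summed normalized counts of 5 lung markers were 50710 to 82699 in lung and 320 to 6122 in intestine, and those of 4 intestine markers 23.0 to 132 and 7430 to 17374. The targeted genes were lower in their own mutants without passing the test: Cenpj had log2 fold changes of -0.39 in lung and -0.44 in intestine, and Ift88 of -0.42 and -0.38. In whole organs, fewer cells of a type and less RNA per cell cannot be told apart.

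The 10 genes were all well above the detection limit, and the later enzymes of glycolysis were the most abundant. Levels are normalized counts, that is read counts divided by the size factor of the library, and they are set between genes only per kilobase of exon. Eno1 had the highest mean over the 24 libraries at 22926 normalized counts per kb, followed by Ldha at 19543, Aldoa at 17025 and Pgk1 at 12478 per kb. A step below came Pfkl at 3269, Slc2a1 at 2849 and Hk2 at 1747 per kb. Egln3 at 922, Pdk1 at 793 and Bnip3 at 537 per kb were lowest. Some neighbours in this order were not separated. Pgk1 exceeded Pfkl per kb in 24 of 24 libraries and Slc2a1 exceeded Hk2 in 24 of 24, whereas Eno1 exceeded Ldha in 21, Pfkl exceeded Slc2a1 in 19 and Ldha exceeded Aldoa in 18. Ldha stood above Aldoa per kb in 12 of 12 lung and 6 of 12 intestine libraries. Egln3 stood above Pdk1 per kb in 0 of 12 lung and 11 of 12 intestine libraries. A second row with the symbol Aldoa overlaps the first on the same strand and held only 73.1 to 470 normalized counts. Because its reads may be shared with the main Aldoa row, it is uncertain and is not counted among the 10.

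**Figure D1:**
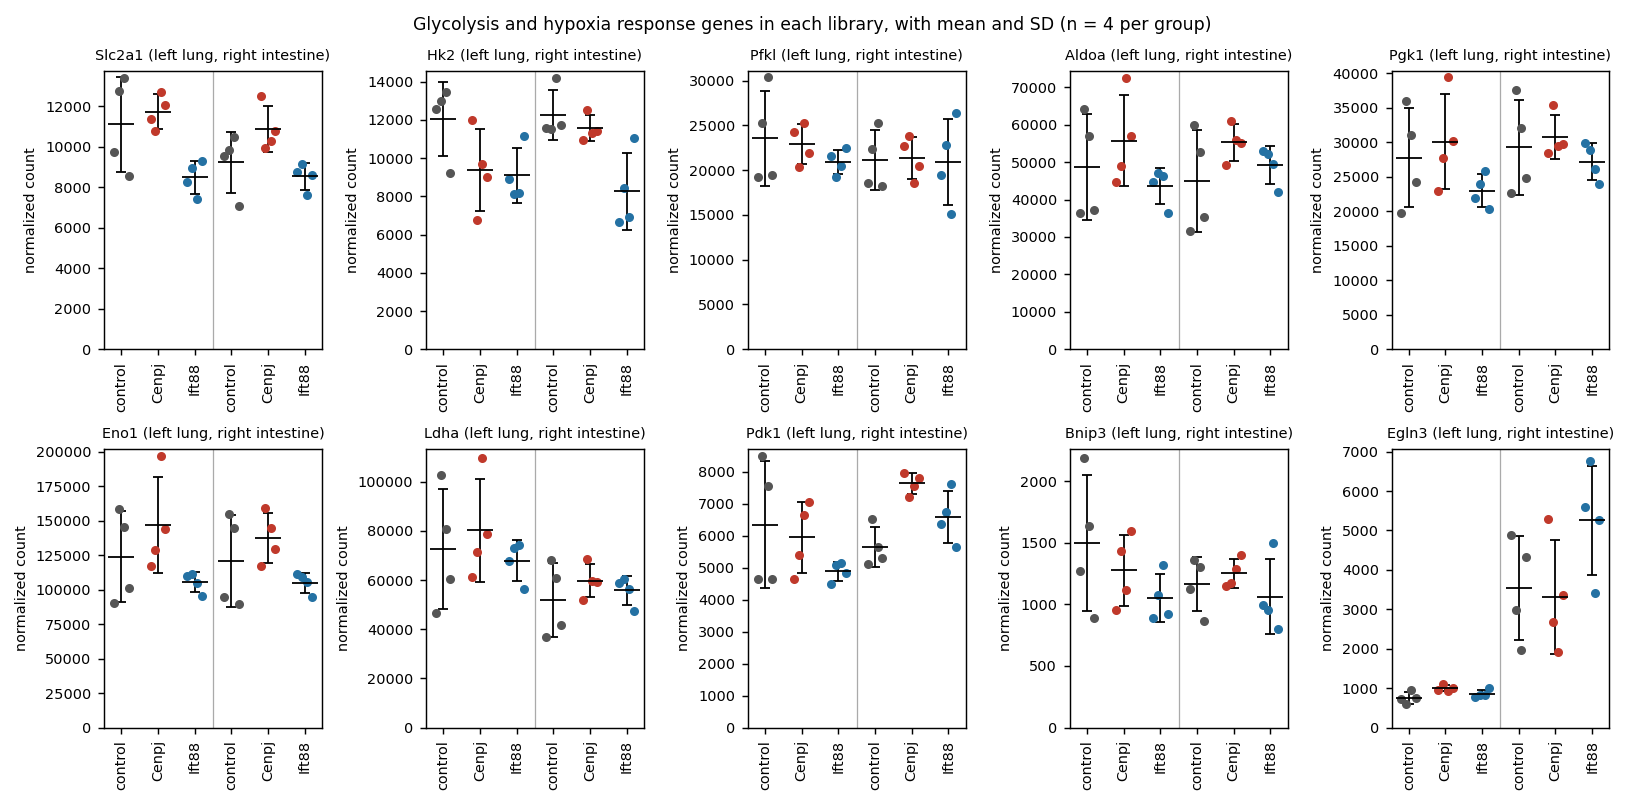
Normalized counts (linear axes from 0) of the 10 genes in each of the 24 libraries, lung on the left and intestine on the right of each panel; points are libraries, horizontal marks are group means and bars are SD (n = 4). Egln3 sits between 599 and 1096 in lung and between 1929 and 6761 in intestine, while the other genes overlap between organs.

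The organ comparison asked which of these genes differ between lung and gut within a genotype, and Egln3 was the gene called in the main test. In control lung it measured 714, 599, 958 and 756 normalized counts, and in control intestine 4878, 2982, 1956 and 4317. The Cenpj mutants had 961, 1096, 922 and 1012 in lung and 5303, 2675, 1929 and 3368 in intestine. The Ift88 mutants had 775, 817, 830 and 998 in lung and 5594, 6761, 3411 and 5268 in intestine. Every intestine library lay above every lung library, and the spread was wider in the intestine, where the highest control was 2.49 times the lowest. Egln3 was 4.46-fold lower in control lung (95% interval 3.10 to 6.41), 3.11-fold lower in Cenpj mutant lung (2.16 to 4.47) and 5.99-fold lower in Ift88 mutant lung (4.17 to 8.62). On the log2(value + 1) scale these were -2.16, -1.64 and -2.58, each with an SE of 0.255, with adjusted p-values of 1.02e-06, 6.96e-05 and 3.01e-08 by limma with Benjamini-Hochberg adjustment over all genes. Between same-numbered libraries, which were not taken as paired, the intestine to lung ratio ran from 2.04 to 8.28. The authors' deposited table gives Egln3 an intestine over lung fold of 4.67 in control, 3.33 in Cenpj and 6.15 in Ift88 libraries.

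Egln3 was thus 1 of 10 genes called in each organ comparison. Of all genes, 5.33% were called in control, 6.51% in Cenpj and 8.47% in Ift88 libraries, and 2.73%, 3.98% and 5.37% were called lower in lung. The shares of all genes whose organs did not overlap were 7.18%, 10.8% and 14.1%. Beyond the organ markers, those of 3 kinds were mostly lower in lung, as Egln3 was, and those of other kinds were mostly higher or mixed. The summed level of 4 epithelial markers was 15161 to 35652 in lung and 25911 to 55068 in intestine, with 2 of the 4 called lower in lung in each genotype. In Ift88 mutants 1 of the 4 epithelial estimates was positive. The summed level of 4 enteric neural crest markers was 915 to 15478 in lung and 13272 to 43293 in intestine. Called lower in lung were 2, 3 and 4 of them in control, Cenpj and Ift88 libraries. The summed level of 4 liver markers was 290 to 12452 in lung and 2135 to 38005 in intestine, with 3 of the 4 estimates negative in each genotype and 1 called, in Ift88 mutants. None of these 12 markers was at 0 in any group. Heart muscle markers went the other way, with 3, 2 and 3 of 4 called higher in lung in control, Cenpj and Ift88 libraries. All 13 red cell markers had positive estimates in each genotype, with 1 called, in controls. Mesothelial markers were mixed, with 1, 2 and 2 of 3 estimates negative in control, Cenpj and Ift88 libraries. Of these, 1 was called higher in Cenpj mutant lung and 1 lower in Ift88 mutant lung. The part of any of these markers in the Egln3 difference was not tested.

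Ldha came next among the organ differences of the controls. Its control libraries measured 46490, 102598, 80767 and 60292 normalized counts in lung and 36933, 68326, 60765 and 41707 in intestine, and the groups overlapped. Its log2 fold change, lung over intestine, was 0.47 in controls (SE 0.20, adjusted p = 0.243), 0.40 in Cenpj mutants (adjusted p = 0.305) and 0.28 in Ift88 mutants (adjusted p = 0.543) by limma. Without lung control 1 the control difference was 0.66 and passed the test (adjusted p = 0.0488), which was so in 1 of 24 fits that left out a single library. Matched by library number alone, Ldha was higher in lung in each of 12 pairs, by 1.05 to 1.84 times, but the numbers were not taken to pair samples. How many of all genes did so was not counted, so this is no test. A fit of the control libraries alone with the number as a block, chosen after seeing the data, called Ldha (0.47, adjusted p = 0.00383 by limma). It does not replace the main test. Over settings, that fit included, 1169 to 2095 of all genes were called, against 1711 in the main test.

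Pdk1, the kinase that restrains pyruvate dehydrogenase, had an organ difference in controls of 0.12 on the log2 scale (95% interval -0.20 to 0.44), which did not pass the test. In the Cenpj mutants it measured 4647, 5408, 6658 and 7064 normalized counts in lung and 7968, 7207, 7564 and 7789 in intestine. In the Ift88 mutants it measured 4498, 5076, 5140 and 4824 in lung and 6362, 6740, 7603 and 5645 in intestine. The organs did not overlap in either mutant, while the share of all genes that did not overlap was 10.8% and 14.1%. Neither difference passed the test, at log2 -0.38 (adjusted p = 0.179) and -0.43 (adjusted p = 0.102) by limma. The other 7 genes had organ differences between -0.33 and 0.31 on the log2 scale and none passed.

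**Figure D2:**
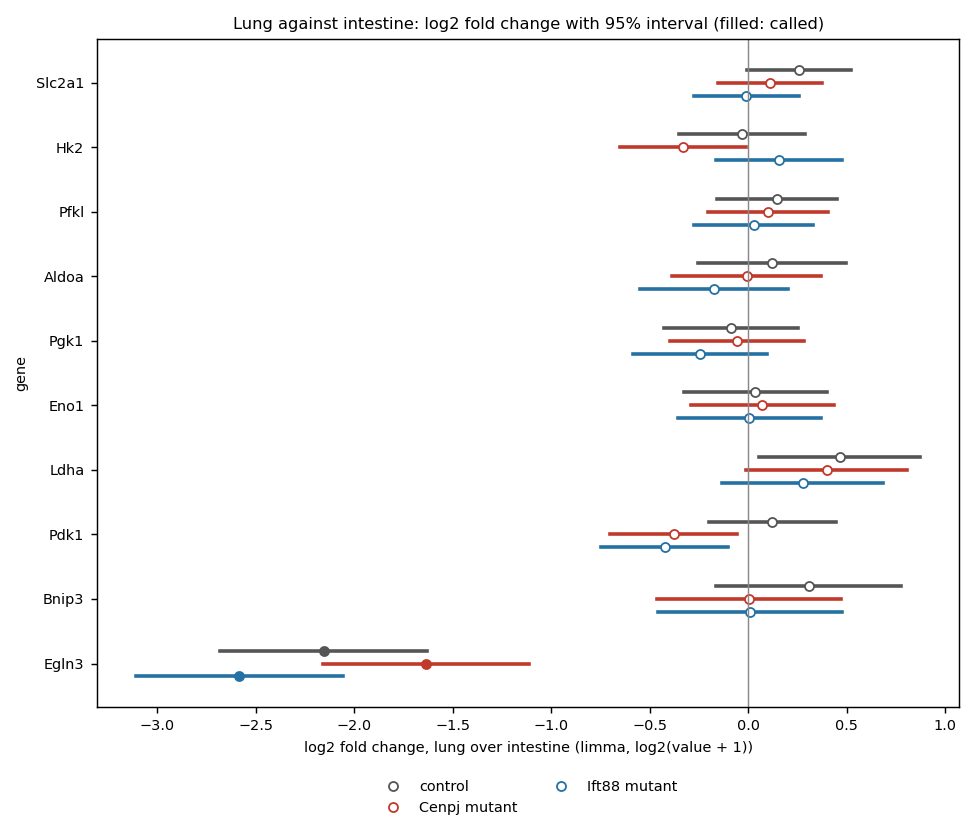
Log2 fold change of lung over intestine (horizontal axis) for each gene in the 3 genotypes, with limma 95% intervals; filled points passed the adjusted p threshold of 0.05. Egln3 alone is filled, at -2.16, -1.64 and -2.58.

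In the lung of Cenpj mutants, centriole-disrupted in the epithelium, 0 of 10 genes passed limma's test, against 0.513% of all genes, and 0 of 10 had groups that did not overlap, against 5.42%. Positive estimates numbered 6 and negative ones 4, with a median of 0.11 on the log2 scale against 0 for all genes. An unadjusted p under 0.05 was found for 2 genes, and for 3606 of the 31361 genes tested. The 2 were Hk2 at -0.38 (SE 0.16, adjusted p = 0.336) and Egln3 at 0.42 (SE 0.18, adjusted p = 0.363), and edgeR, DESeq2 and limma-voom likewise called 0 of 10. With library kind (many or few ribosomal reads, as above) as a further term, 1 estimate was positive and 9 were negative, whether 12 or 24 libraries were fitted. Over the 12 lung libraries the mutants are then in effect set against lung control 3 alone, and over 24 intestine control 2 adds to the term. Such fits therefore cannot separate library kind from genotype. The widest 95% interval bounds over the 10 genes were -0.70 and 0.79. The ATP-making enzyme Pgk1 had 27739 ± 7180 normalized counts in control and 30063 ± 6915 in mutant lung (SD, n = 4), and Eno1 had 123902 ± 33166 and 146774 ± 35014.

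The intestine of Cenpj mutants gave the same count, 0 of 10, and the share called among all genes was 0%. Pdk1 stood apart from the others: controls measured 5116, 6504, 5637 and 5289 normalized counts and Cenpj mutants 7968, 7207, 7564 and 7789. The 4 mutant libraries were all above the 4 controls, which was so in either direction for 2.22% of all genes. Its log2 fold change was 0.44 (SE 0.11), and the adjusted p was 0.558 by limma. Pdk1 and Aldoa had an unadjusted p under 0.05, as did 5.12% of all genes, and edgeR, DESeq2 and limma-voom called 0 of 10. The median of the 10 estimates was 0.17, against 0.01 for all genes, and 8 were positive. With library kind as a term 4 were positive over the 12 intestine libraries and 2 over all 24. Over the 12 intestine libraries this term rests on intestine control 2 alone.

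In Ift88 mutant lung, cilia-disrupted in the epithelium, 0 of 10 genes passed limma's test, against 1.07% of all genes, and 0 of 10 had groups that did not overlap, against 6.13%. Of the 10 estimates 9 were negative, with a median of -0.22 against 0 for all genes. The glucose transporter Slc2a1 measured 9724, 12753, 13367 and 8540 normalized counts in control lung and 8270, 8946, 7430 and 9293 in Ift88 mutant lung. The groups overlapped through control 4, and the controls were the more spread. Its log2 fold change was -0.37 (SE 0.13, adjusted p = 0.202 by limma). Without lung control 4 it was -0.49 and passed (adjusted p = 0.0304), which was so in 1 of 12 fits that left out a single library. Hk2 was at -0.40 (adjusted p = 0.261), so 2 genes had an unadjusted p under 0.05, as did 12.2% of all genes, and edgeR, DESeq2 and limma-voom called 0 of 10. Summed counts of 13 red cell markers were 497880 to 1634850 in control and 254534 to 415002 in Ift88 mutant lung, with 7 of the 13 called lower and none at 0 in any group, and their part in these differences was not tested.

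Hk2 was the gene called in Ift88 mutant intestine, 1 of 10, against 0.719% of all genes, or 0.32% called lower. Controls measured 11558, 11515, 14174 and 11707 normalized counts and Ift88 mutants 6654, 8420, 6920 and 11042. All 4 mutant libraries lay below all 4 controls, although mutant 4 was close to them, and the share of all genes whose groups did not overlap was 6.67%. Hk2 was 1.51-fold lower (95% interval 1.24 to 1.83), a log2 fold change of -0.59 (SE 0.13, adjusted p = 0.0480 by limma). This call sat at the threshold: it was lost under 10 of 15 other settings and without any of intestine control 1, 2 or 3, Cenpj mutant 3 or 4, or Ift88 mutant 1, 2 or 3, with adjusted p-values of 0.00495 to 0.201 over settings and log2 values of -0.74 to -0.50 without single libraries. The authors' deposited table gives a fold of 0.675 with a false discovery rate of 0.0166. Egln3, at 0.62 (SE 0.29, adjusted p = 0.363), had the largest positive estimate of the 10. Red cell markers summed to 217216 to 636716 in control and 174701 to 248629 in Ift88 mutant intestine, with 3 of 13 called lower, and their part in the Hk2 difference was not tested.

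**Figure D3:**
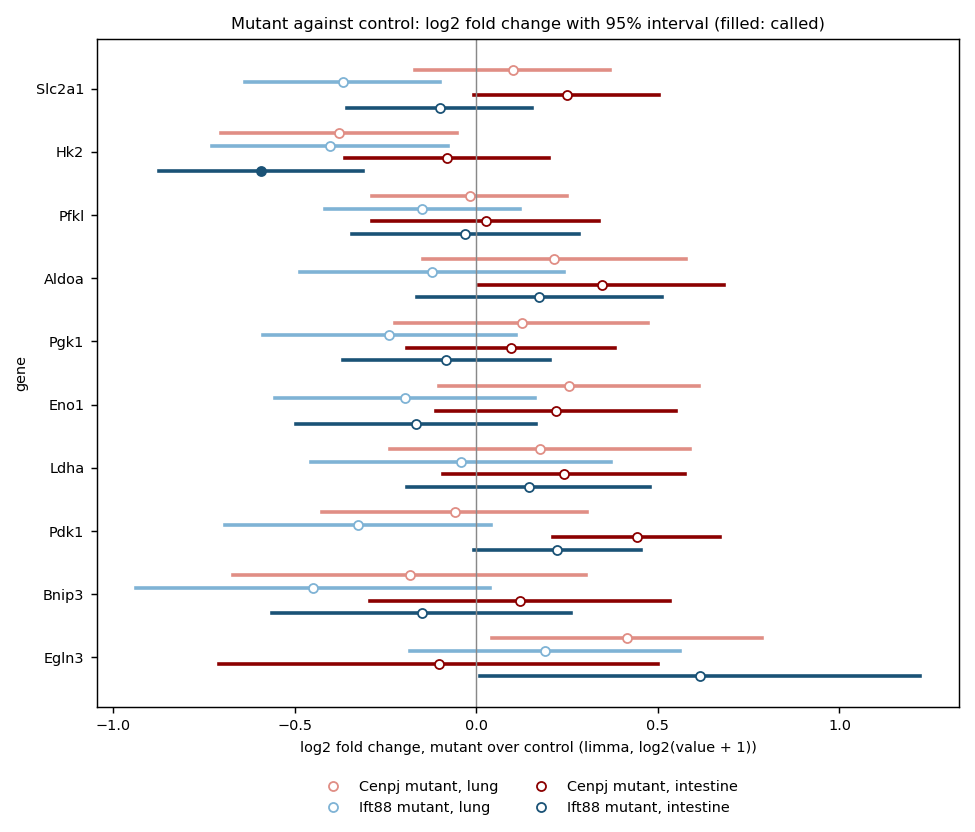
Log2 fold change of mutant over control (horizontal axis) for each gene in 4 comparisons, with limma 95% intervals; filled points passed the adjusted p threshold of 0.05. Hk2 in Ift88 mutant intestine, at -0.59, is the filled point, and comparisons within an organ share their control libraries.

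The mutants were also set against each other, with the spread estimated from the 12 libraries of the organ, controls included. All Cenpj mutant libraries had many ribosomal reads and all Ift88 mutant libraries few. The library kind fits here and below therefore rest on lung control 3 and intestine control 2 alone, and cannot separate library kind from genotype. In lung, 10 of 10 estimates were higher in Cenpj than in Ift88 mutants, with a median of 0.27 against 0 for all genes, but 0 of 10 passed limma's test, where 1.80% of all genes did. With library kind as a term, 3 of 10 were higher and 7 lower, both over 12 and over 24 libraries, with medians of -0.05 and -0.03. With library totals as scaling 9 were higher, Hk2 being at -0.04. Slc2a1 came closest. Its Cenpj mutant libraries measured 11346, 10746, 12716 and 12061 normalized counts, all above the Ift88 mutant values given above, and the difference was 0.47 (SE 0.13, adjusted p = 0.0731). With only the 8 compared libraries it passed (adjusted p = 0.0151), and with library kind as a term it was 0.08 over 12 libraries (adjusted p = 0.957) and 0.20 over 24 (adjusted p = 0.845). Eno1 also did not overlap, at 117527, 128623, 196643 and 144302 in Cenpj and 110103, 111234, 104508 and 95626 in Ift88 mutants, a difference of 0.45 (SE 0.17, adjusted p = 0.242). For groups that did not overlap, the share among all genes was 7.64%. An unadjusted p under 0.05 was found for 3 genes and for 12.1% of all genes, edgeR and limma-voom called 0, and DESeq2 called Slc2a1 (adjusted p = 0.0243). The authors' deposited table gives Slc2a1 an Ift88 over Cenpj fold of 0.724 in lung, with a false discovery rate of 0.0205.

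In intestine, 0 of 10 genes passed limma's test between the mutants, where 2.19% of all genes did, and 9 of 10 estimates were higher in Cenpj mutants. With library kind as a term 2 of 10 were higher, Hk2 and Slc2a1, over 12 and over 24 libraries alike, with medians of -0.11 and -0.17. Hk2 measured 10937, 12529, 11309 and 11434 normalized counts in Cenpj mutants, overlapping Ift88 mutant 4 alone, with a difference of 0.51 (SE 0.13, adjusted p = 0.0525). DESeq2 and limma-voom called it (adjusted p = 0.0135 and 0.0486), and edgeR called 0. The authors' deposited table gives Hk2 an Ift88 over Cenpj fold of 0.715 in intestine, with a false discovery rate of 0.0354. Slc2a1 did not overlap, at 12510, 9948, 10273 and 10789 in Cenpj and 8767, 9147, 7588 and 8614 in Ift88 mutants, a difference of 0.35 (adjusted p = 0.142). Egln3 was the exception in sign, at -0.72 (SE 0.29, adjusted p = 0.212). Groups that did not overlap made up 10.3% of all genes. An unadjusted p under 0.05 was found for 4 of the 10 and for 15.6% of all genes. With only the 8 compared libraries Hk2 passed (adjusted p = 0.0385), and with library kind as a term its difference was 0.62 over 12 libraries (adjusted p = 0.357) and 0.45 over 24 (adjusted p = 0.547).

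Whether a mutation acted differently in the 2 organs was tested as the difference of the effects. For Cenpj 0 of 10 genes passed, where the share of all genes was 0%, and for Ift88 0 of 10 passed, where the share was 0.0125%. Pdk1 had an unadjusted p under 0.05 both times, with a lung minus intestine difference of -0.50 for Cenpj (SE 0.22, adjusted p = 0.932) and -0.55 for Ift88 (SE 0.22, adjusted p = 0.548) by limma. These 2 tests share their controls. Of edgeR, DESeq2 and limma-voom, none called a gene of the 10 in either test.

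Within groups, 4 enzymes of the pathway varied together from library to library. Deviations of log2 values from the group mean correlated at 0.94 to 0.98 among Aldoa, Pgk1, Eno1 and Ldha over the 24 libraries, against a median of 0.45 over all 45 pairs of the 10 genes. The 4 are the block with the highest r in these same values, and their 6 pairs are among the 45, so standing above the median is no test. These are descriptions without a p, over points that share a library, its size factor and its tissue makeup. The closest pair, Pgk1 and Ldha, had a Pearson r of 0.98 and a Spearman rho of 0.98, and r was 0.98 without the 2 outermost libraries. Pdk1 followed the 4 enzymes at 0.72 to 0.77 and was closest to Bnip3 (r = 0.79). Hk2 was close to Pfkl (r = 0.69) and had a median r of -0.01 with the other 9 genes. Egln3 ran the other way, with a median r of -0.29 and its lowest value, -0.46, with Eno1.

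**Figure D4:**
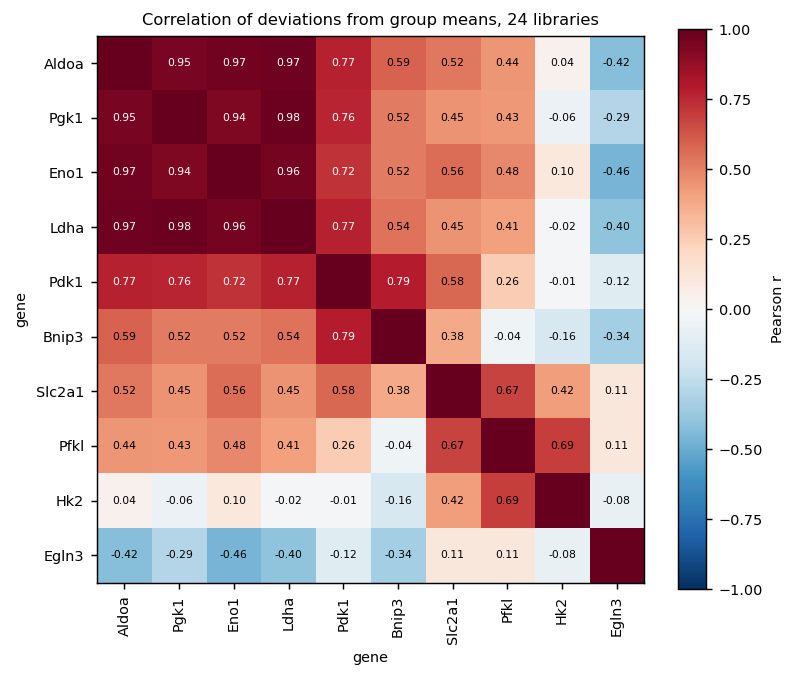
Pearson correlation of log2 deviations from the group mean between each pair of genes, over 24 libraries (colour and printed values). Aldoa, Pgk1, Eno1 and Ldha form a block at 0.94 to 0.98, and the Egln3 row is mostly below 0.

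The shared deviation of these 4 enzymes was largest in the lung controls, and reached 0.44 in Cenpj mutant lung 3. Averaged over them, it was -0.45, 0.45, 0.24 and -0.24 in lung controls 1 to 4 and -0.39, 0.43, 0.25 and -0.29 in intestine controls 1 to 4, so the same 2 numbers were high in both organs. Their summed normalized count was 1.87 times higher in the highest than in the lowest lung control, and 1.72 times in intestine controls. The ratio was 1.70 in Cenpj mutant lung and 1.31 in Cenpj mutant intestine, and 1.22 in Ift88 mutants of either organ. Control 1 of each organ, the lowest of its group, was one of the 2 male libraries, with 7740 normalized counts of the Y-linked Ddx3y in lung and 8063 in intestine, against 0 to 1438 in the other 22. The 1438 was in Cenpj mutant intestine 1, which also had 98518 of Xist, an RNA made from the inactive X of females. Of the 2 controls with many ribosomal reads, lung control 3 lay between controls 2 and 4, and intestine control 2 was the highest of its group. Over the 24 libraries the shared deviation had a Pearson r of 0.69 (Spearman 0.72) with the summed heart muscle markers, 0.60 (0.59) with liver markers, -0.47 (-0.36) with red cell markers, 0.23 (0.19) with ribosomal reads, which was 0.42 without the 2 outermost libraries, and -0.09 (-0.11) with total reads. The other values computed were -0.39 (Spearman -0.35) with endothelial, -0.15 (-0.19) with macrophage and -0.09 (-0.10) with epithelial markers, and -0.19 (-0.16) with genes detected. The part of all these, and of sex, in the shared deviation was not tested.

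**Figure D5:**
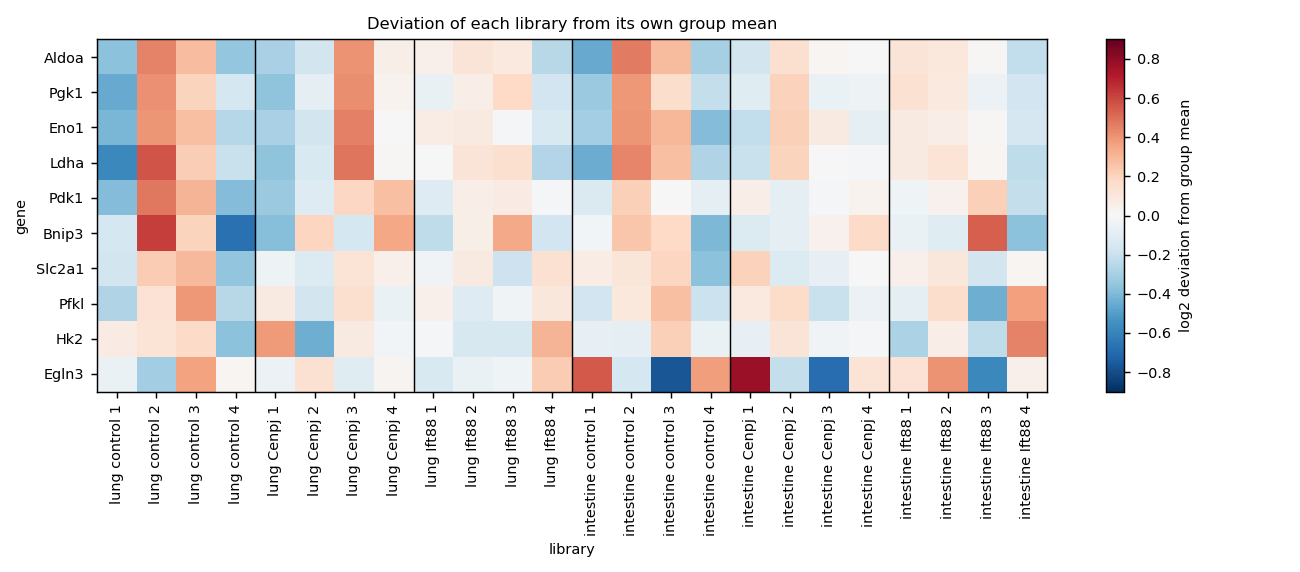
Log2 deviation of each library (columns) from the mean of its own group for the 10 genes (rows), with red above and blue below the mean and lines between groups. The 4 upper rows change together, for example down in lung control 1 and up in lung control 2.

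The genes most like the 10 were sought among 16366 genes that averaged at least 100 normalized counts. With group means removed, the genes closest to the mean standardised level of the 10 were Slc16a3, the lactate exporter Mct4 (r = 0.87), Gapdh (0.85), Pgam1 (0.84), Gpi1 (0.84) and the processed pseudogene Gm5559 (0.84). Over the 24 libraries as they stand, the closest were Pkm, the pyruvate kinase (0.87), and Slc16a3 (0.86), and the 5 closest also held the processed pseudogenes Gm11652 (0.82) and Gm5559 (0.82). These too are correlations over 24 libraries that share depth and tissue makeup.

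The rest of the pathway was read from 4 lists. The counts called stand beside these shares of all genes. Against control they were 0.513% and 0% for Cenpj lung and intestine, and 1.07% and 0.719% for Ift88. Between the mutants they were 1.80% in lung and 2.19% in intestine. Between organs they were 5.33%, 6.51% and 8.47% in control, Cenpj and Ift88 libraries. Of 16 other glycolysis genes, 0 were called in the Cenpj mutants of either organ, and 1 was called in each Ift88 comparison. Slc2a3, the transporter Glut3, had 7186 ± 3222 normalized counts in control and 2781 ± 235 in Ift88 mutant lung (SD, n = 4), with a log2 fold change of -1.23 (SE 0.27, adjusted p = 0.0292 by limma). The lowest control, at 2964, overlapped the mutants. Pfkp, another phosphofructokinase, rose in Ift88 mutant intestine from 1307 ± 428 to 2485 ± 310 (log2 0.97, SE 0.19, adjusted p = 0.0301). Gapdh and Pkm, the most abundant of the list, had estimates between -0.25 and 0.34 over the 4 mutant comparisons and did not pass. List medians were 0.07, 0.14, 0.00 and 0.09 for Cenpj lung, Cenpj intestine, Ift88 lung and Ift88 intestine, against 0, 0.01, 0 and 0.06 for all genes.

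Between the mutants, Slc2a3 was higher in Cenpj than Ift88 lung by 2.24 times (adjusted p = 0.0284), where it was the gene called of the 16. In intestine 3 of the 16 were called: Slc16a3 and Slc16a1, both lactate carriers, were 1.81 and 1.45 times higher in Cenpj mutants, and Pfkp was at 0.501 times the Ift88 level. With library kind added to the fit of the 12 lung libraries, the Slc2a3 difference was 0.21 on the log2 scale (adjusted p = 0.949), and over all 24 libraries it was 0.98 (adjusted p = 0.505). None of the 3 intestine calls passed in these fits either, with adjusted p-values of 0.192 to 0.821. The library kind term rests here too on lung control 3 and intestine control 2. Each of the 6 genotype calls of this list held when single libraries were left out in 5 to 8 of 12 cases. Pfkfb3, whose product raises the activator of phosphofructokinase, was higher in lung in all 3 genotypes, by 1.71, 1.86 and 3.09 times in control, Cenpj and Ift88 libraries. It was the only gene of the 16 called between the organs in controls and in Cenpj mutants. In Ift88 mutants Slc2a3, Ldhb and Gpi1 were also called, all lower in lung, at -1.03, -0.49 and -0.31.

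Of 22 other hypoxia targets, 0 were called against control in either mutant and organ, with medians of 0.02 (Cenpj lung), 0.11 (Cenpj intestine), -0.09 (Ift88 lung) and 0.20 (Ift88 intestine). The most abundant of them, the vessel growth factor Vegfa and the mitophagy receptor Bnip3l, did not pass. Between the mutants in lung 2 of 22 were called, Vegfa lower (-0.56) and the carbonic anhydrase Car12 higher (1.14) in Cenpj mutants, neither of which passed with library kind as a term (adjusted p = 0.347 to 0.894), and in intestine 0 were. Between organs 4 of 22 were called in controls, where 5.33% of all genes were, and they did not share a direction. Ndrg1 and Car12 were lower in lung, like Egln3, at 0.501 and 0.509 times the intestine level in controls and 0.322 and 0.190 times in Ift88 mutants. Angptl4, an inhibitor of lipoprotein lipase, and Ddit4, an inhibitor of mTORC1, were higher in lung, at 1.57 and 1.64 times in controls. The same 4 genes were called in both mutants, and in Ift88 mutants Bhlhe40 (-1.14) and Loxl2 (-0.43) were called as well. The medians for lung over intestine were 0.11, -0.07 and -0.16 in control, Cenpj and Ift88 libraries.

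Of 11 genes for HIF and its regulators, 0 were called in any comparison of mutants with control or of the mutants with each other. Hif1a itself, the oxygen-sensitive HIF-1 subunit, had 13892 ± 1086 normalized counts in control lung and 12828 ± 307 in control intestine (SD, n = 4), a difference of 0.11 (adjusted p = 0.709). Siah2, a ubiquitin ligase for hydroxylases of the Egln family, was the only one called between organs, lower in Cenpj mutant lung (-1.01). Egln1, the main hydroxylase for HIF in most cells, had a log2 difference of -0.19 (adjusted p = 0.404) between control lung and intestine, where Egln3 had -2.16. Of 9 genes that govern pyruvate entry into mitochondria, 0 were called between genotypes. Pdha1, a subunit of pyruvate dehydrogenase, and Pdk3, a kinase that inhibits it, were higher in lung in all 3 genotypes, at 0.37 and 0.49 on the log2 scale in controls. The Pdha1 call in Ift88 mutants (0.26, adjusted p = 0.0499) held under 9 of 13 other settings and in 6 of 24 cases without a single library.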

How the data were processed

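Total RNA of 24 libraries, 4 in each of 6 groups named by organ and genotype in the labels, was extracted with Trizol and an RNeasy Micro kit, per the labels' protocols. The deposited signal columns are read counts divided by 1 size factor per library and rounded to 1 decimal by the authors, as the headers and values show. The deposited ratio columns are the authors' linear fold changes, and 2 more kinds of deposited column hold raw p-values and false discovery rates from the authors' own test. Per the submitters' processing notes, STAR 2.5.2b and DESeq2 1.16.1 were used with the builds GRCm38 and mm10. Which counter, annotation and strandedness were used is not given in the sources used here, and overlapping and near-identical genes are therefore uncertain. Members were matched by symbol, coordinates come from GENCODE on GRCm38, and promoters from RefSeq.

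The main test was limma-trend (limma 3.58.1, R 4.3.3) on log2(value + 1) for genes averaging at least 1, with group as the sole term and Benjamini-Hochberg adjustment over all genes, called under 0.05. Fold changes on this scale understate the change of low genes. Comparisons within an organ used its 12 libraries, and those between organs all 24. Whole reads were recovered (100% of values up to 500 whole within 0.051) for depth and for edgeR 4.0.16, DESeq2 1.42.0 and limma-voom as alternatives. In 4 libraries the step lies too near 1 to be told apart from rounding. The tests were tried on simulated data first. Library kind means ribosomal RNA reads above or below 2000 per M reads. Its term rests on lung control 3 and intestine control 2, the controls with many such reads.

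The 10 genes and the pathway and marker lists were proposed and chosen with earlier results of these data known. From each pathway list the called genes with the smallest p were named, up to 3 per comparison, or else the 2 with the highest mean, and genes most like the 10 were the 5 with the highest correlation, of which not all are reported here. Egln1, and genes beyond the third in a list, were named after their values were seen. No correlation between libraries is given a p. Depth covers counting error only.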

Additional observations from a re-analysis of the deposited data

Results flagged for a closer look

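A single value stood apart within its group, out of 66 groups of 4 libraries examined for the 10 genes and the second Aldoa row, where chance would mark about 1 group in 20. Hk2 measured 14174.4 normalized counts in intestine control 3, while the other 3 controls lay between 11514.6 and 11706.9, so 0.928 of the range of the group lay between this library and the next. Without it, the Hk2 difference between Ift88 mutant and control intestine was -0.52 on the log2 scale, with an adjusted p of 0.192 by limma.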

How the results depend on the processing

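The Egln3 organ difference held in all 3 genotypes under every alternative run, at log2 -2.22 to -2.14 in controls, -1.73 to -1.63 in Cenpj and -2.62 to -2.57 in Ift88 libraries, and without any single library. No called difference reversed. Values with no call changed sign in 207 of 3671 cases (5.64%). The main counts of called members that moved were as follows. For Ift88 mutant against control intestine, 1 became 0 with a pseudocount of 0.1, with no filter, with a mean of 50 or more, with edgeR under either scaling, with library totals, with only the compared groups, and with sex or library kind (both fits) as a term. It was 0 to 1 without single libraries. For Cenpj against Ift88 mutant intestine, 0 became 1 (Hk2) with a mean of 50 or more, DESeq2, limma-voom or only the compared groups, and was 0 to 1 without single libraries. In lung, the same comparison went from 0 to 1 (Slc2a1) with DESeq2 or only the compared groups, and was 0 to 1 without single libraries, as was Ift88 mutant against control. Between control organs it was 1 to 2 without single libraries, and between Ift88 mutant organs 2 with only the compared groups, which added Pdk1 (-0.43, adjusted p = 0.0115 by limma). The cause was not tested.

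Deviations of same-numbered libraries did not correlate above 0.1 in all 4 pairs of any 2 groups, so the numbers were not taken to pair samples. With the replicate number as a block, Hk2 and Egln3 were called between the mutants in intestine (2 of 10, adjusted p = 0.0361 and 0.0208 by limma), and the other 10 counts of called members stayed as they were. Over settings 22 to 1855 of all genes were called in this comparison, and the share under the block itself is not given here. Between control lung and intestine 3 of 4 libraries correlated best with their own number, at r of 0.05 to 0.16 over genes averaging at least 50. This was not particular to the control organs. Same-numbered libraries of control and Cenpj mutant intestine, which differ in genotype and so in embryo, had r of 0.08 to 0.20 over these genes. With Ddx3y above Xist as the rule, control 1 was male in both organs and no other library was, so whether the controls are paired is open. A fit of these 8 libraries with the block, chosen after seeing the data, called 2 members, Egln3 and Ldha (0.47, adjusted p = 0.00383 by limma). Over settings, that fit included, 1169 to 2095 of all genes were called between the control organs.

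Counts over all genes moved more, with settings or without single libraries giving 7 to 754 genes for Cenpj lung (161 in the main test), 0 to 568 for Cenpj intestine (0), 16 to 995 for Ift88 lung (335), 18 to 1027 for Ift88 intestine (227), 36 to 1105 (563) and 22 to 1855 (692) between the mutants in lung and intestine, and 0 to 194 for the difference of Ift88 effects (4). The lowest value among the 10 genes was 599 normalized counts.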
